A study of Mus musculus with 16 samples.

Results

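The 42 genes described here encode proteins that sense damaged DNA or repair it. They were chosen by name, as a list that covers damage signaling kinases, strand break repair, excision repair, mismatch repair and translesion synthesis, and all 42 were found among the 31053 features of each deposited matrix. The study grafted MC38, a colorectal carcinoma line, or Panc02-SIY, a pancreatic adenocarcinoma line that carries the model antigen SIY, under the flank skin of wild-type C57BL/6J mice, for which the methods give an age of 6 to 8 weeks, and asked how the immune cells of both tumors respond to radiation therapy. Tumors were left untreated (NT) or were given 1 dose of 12 Gy aimed at the tumor (RT), and live CD45+ cells, the leukocytes, were sorted from them 24 h after treatment. Each of the 4 groups (MC38 NT, MC38 RT, Panc02-SIY NT and Panc02-SIY RT) has 4 single-cell RNA libraries, 16 in all. The labels give 4 animals per group while the methods give 3, so p-values measure the spread between these libraries, which may in part be technical.

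Ionizing radiation breaks both strands of DNA, breaks single strands and damages bases. The kinases ATM, ATR and the DNA-dependent protein kinase sense breaks and stalled forks, histone H2AX is phosphorylated around them, and MDC1, RNF8, RNF168 and 53BP1 assemble there. Breaks are then joined end to end by the Ku proteins, DNA ligase IV and XRCC4, or are repaired from the sister chromatid by homologous recombination, which needs BRCA1, BRCA2 and PALB2 and operates in S and G2 phase. Base excision repair (OGG1, APE1, DNA polymerase beta, XRCC1) removes damaged bases, nucleotide excision repair (the XP and ERCC proteins) removes bulky adducts, and translesion polymerases copy past lesions that remain. Most of these proteins are controlled by modification and recruitment more than by transcription, so mRNA levels give only part of their biology.

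Depth set which of the 42 genes could be read. The libraries of MC38 tumors shared many cell barcodes with each other, with a median of 964.5 shared per library pair (83.3% of the smaller library), against 82 (5.54%) for pairs of Panc02-SIY libraries and a median of 0 between tumors. Each barcode was therefore kept only in the library of its tumor in which it had the most unique molecular identifiers (UMIs, counts of captured mRNA molecules), which left 20768 of 28678 barcodes, 2632 of them from MC38 and 18136 from Panc02-SIY. The kept libraries held 147 to 4452 barcodes and 1385711 to 43708746 UMIs, and kept 42.8% to 86.4% of their UMIs in MC38 and at least 99.0% in Panc02-SIY. Summed over all libraries, the 42 genes had between 232 UMIs (Xrcc3) and 12326 UMIs (Ddb1). The lowest were Xrcc3, Polh (399), Lig4 (564) and Xrcc2 (597), which had 11 to 50 UMIs per MC38 group of 4 libraries. Levels below are CPM values, a gene's UMIs scaled to the total of the library, and the log2 fold change of an RT group over its NT group, or of MC38 over Panc02-SIY, comes from a fit over all genes tested. Intervals and errors cover the spread between libraries or counting error, as stated at each.

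For 3 genes that passed after radiation and take up much of the results below, the DNA upstream of the start site is shown first, as examples of a gene that rose (Polk) and of genes that fell in different repair roles (Apex1 and Brca2). The table of RefSeq promoters used here gave a promoter for 32 of the 42 genes, H2afx not among them, and 250 bases before each start site were searched on both strands. For each of the 3 the longest stretch of that window that lies in no annotated exon is given 5' to 3' on the strand of the gene, with the motifs found in capitals. For Polk this is chr13:96542645-96542734 of GRCm38.p6, minus strand, which ends 66 bases before the start site since exons of Col4a3bp fill the rest. For Apex1 it is chr14:50924894-50924948, plus strand, next to exons of Osgep, and for Brca2 it is chr5:150522371-150522620, plus strand.
Polk: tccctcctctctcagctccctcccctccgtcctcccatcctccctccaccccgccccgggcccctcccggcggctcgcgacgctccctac
Apex1: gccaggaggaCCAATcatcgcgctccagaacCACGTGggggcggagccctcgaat
Brca2: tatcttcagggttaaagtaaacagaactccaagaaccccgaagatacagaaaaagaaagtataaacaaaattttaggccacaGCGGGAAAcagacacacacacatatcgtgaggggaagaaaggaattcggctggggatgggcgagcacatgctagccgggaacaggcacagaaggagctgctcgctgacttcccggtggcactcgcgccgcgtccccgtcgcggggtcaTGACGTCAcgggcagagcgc
The Polk stretch holds none of the motifs searched. The Apex1 stretch holds CCAAT, the letters bound by NF-Y, from 45 to 41 bases before the start and CACGTG, an E-box of the kind bound by MYC and USF proteins, from 24 to 19 bases before it. The Brca2 stretch holds GCGGGAAA, an E2F motif read on the other strand, from 168 to 161 bases before the start, and TGACGTCA, a cyclic AMP response element, from 20 to 13 bases before it.

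Over all 32 promoters, an E2F motif (TTTCCCGC, TTTGGCGC, TTTCGCGC or TTTGCCGC) was found in 3 (Mdc1, Xrcc6 and Brca2), which is 9.38% against 1.86% of 32817 listed promoters. CACGTG was found in 5 (Xrcc5, Apex1, Lig3, Parp1 and Parp2), 15.6% against 6.02%. CCAAT was found in 16 (50% against 33.8%), TGACGTCA in 1, Brca2 (3.12% against 1.55%), and TTTGAA, the CHR element of mitotic genes, in 2 (6.25% against 16%). A full p53 binding site was found in no promoter of the 32, against 0.064% of all promoters, and 1 unit of that paired site in 1, Fanca (3.12% against 7.12%). Motifs may overlap each other, and a match describes letters in this window and not the binding of a factor.

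Polk rose in the leukocytes of both tumors after radiation, H2afx and Apex1 fell in both, and each other gene that passed did so in 1 tumor. In MC38 tumors 6 of the 42 genes passed the test in all CD45+ cells (adjusted p under 0.1 and a fold change over 1.3), 1 higher and 5 lower, against 11.7% of all 12447 genes tested (7.24% higher and 4.45% lower). In Panc02-SIY tumors 8 of the 42 passed, 1 higher and 7 lower, against 14.7% of all genes (7.69% higher and 6.99% lower). The 3 genes that passed in both tumors are 50% of the 6 and 37.5% of the 8. The shares of repair genes that passed, 14.3% and 19.0%, were near those of all genes. The median log2 fold change of the 42 genes was -0.13 in MC38 and -0.23 in Panc02-SIY, against 0.04 and -0.03 for all genes tested, with 28 and 33 of the 42 below 0. When every barcode was counted in each library that held it, Polk was the 1 of the 6 MC38 genes that still passed (log2 0.76, adjusted p = 0.00588), with H2afx at -0.66, Apex1 at -0.33, Palb2 at -0.80 and Xrcc2 at -0.64, while the 8 of Panc02-SIY, where few barcodes are shared, all kept their calls. Other processing settings were also run, 11 for most genes. In MC38, Xrcc2 kept its call in 3 of 10, Palb2 and H2afx in 8, Apex1 in 9 and Brca2 in 10. In Panc02-SIY, Atm kept its call in 5, Apex1 in 6, Ercc1 in 7, and H2afx, Xrcc6 and Msh6 in 10. With counts thinned to equal depth per barcode, Xrcc2, Palb2, Apex1 and H2afx no longer passed in MC38. In these sums over CD45+ cells, fewer cells of a type and less RNA per cell cannot be told apart.

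**Figure D1:**
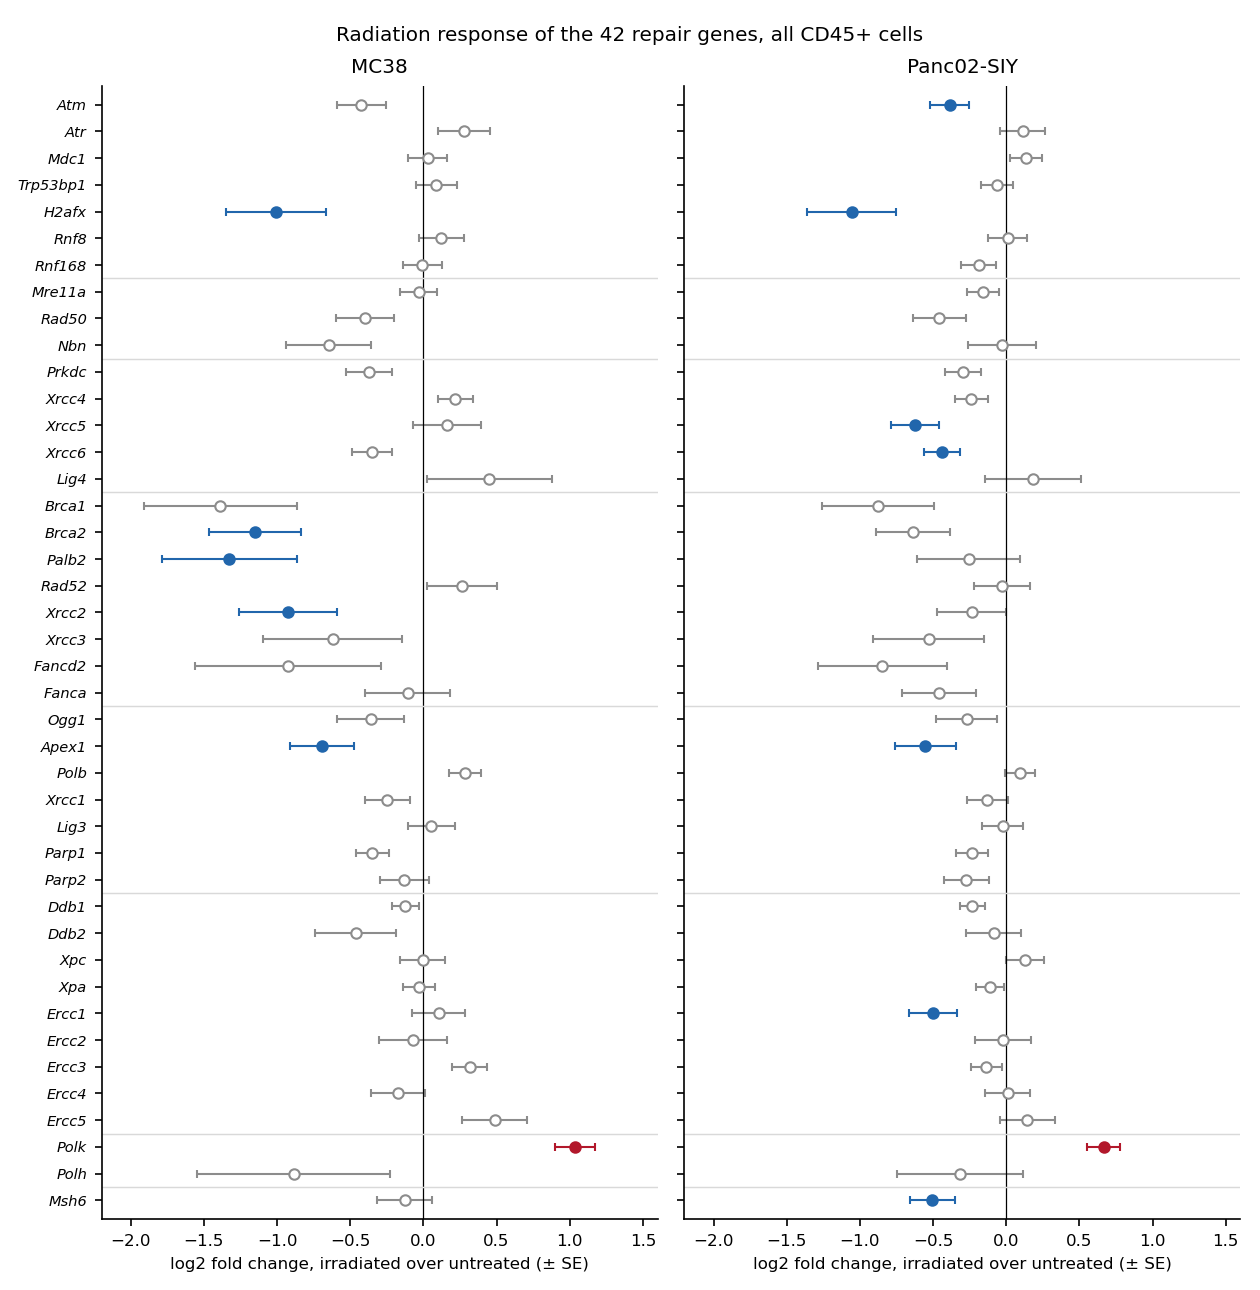
Log2 fold change of each of the 42 genes after 12 Gy in all CD45+ cells, with 1 standard error (SE) as the bar, ordered by role, with MC38 and Panc02-SIY as separate series and filled points for genes that passed the test (adjusted p under 0.1 and fold over 1.3). Polk lies farthest to the right in both tumors, at 1.03 in MC38 and 0.67 in Panc02-SIY, and H2afx lies near -1 in both.

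Polk encodes DNA polymerase kappa, a translesion polymerase that copies past bulky adducts and is a p53 target in mouse (GRCm38 chr13:96480690-96542579, minus strand). In all CD45+ cells of MC38 tumors it was at 11.1, 12.4, 12.3 and 9.97 CPM in the NT libraries and at 27.2, 24.1, 23.4 and 20.3 CPM in the RT libraries. Every RT library was above every NT library, and the means were 11.4 ± 1.14 and 23.8 ± 2.82 CPM (SD, n = 4 each), a 2.05-fold rise (log2 1.03, SE 0.14, adjusted p = 0.000319, edgeR). In Panc02-SIY tumors the NT libraries were at 25.3, 23.5, 26.5 and 19.4 CPM and the RT libraries at 37.5, 38.8, 40.6 and 32.6 CPM. These groups did not overlap either, and the mean rose from 23.6 ± 3.11 to 37.4 ± 3.42 CPM, or 1.59-fold (log2 0.67, SE 0.11, adjusted p = 0.00153). Polk kept its call in both tumors without any single library (log2 0.97 to 1.12 in MC38 and 0.62 to 0.79 in Panc02-SIY) and under each of the 11 other settings run. The difference between the tumors was 0.37 on the log2 scale (SE 0.18), and did not pass the test of the interaction (adjusted p = 0.425). Polh, which encodes the other translesion polymerase listed, eta, averaged 0.731 to 2.29 CPM in the 4 groups and did not pass in either tumor (log2 -0.89, SE 0.66 in MC38 and -0.32, SE 0.43 in Panc02-SIY).

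**Figure D2:**
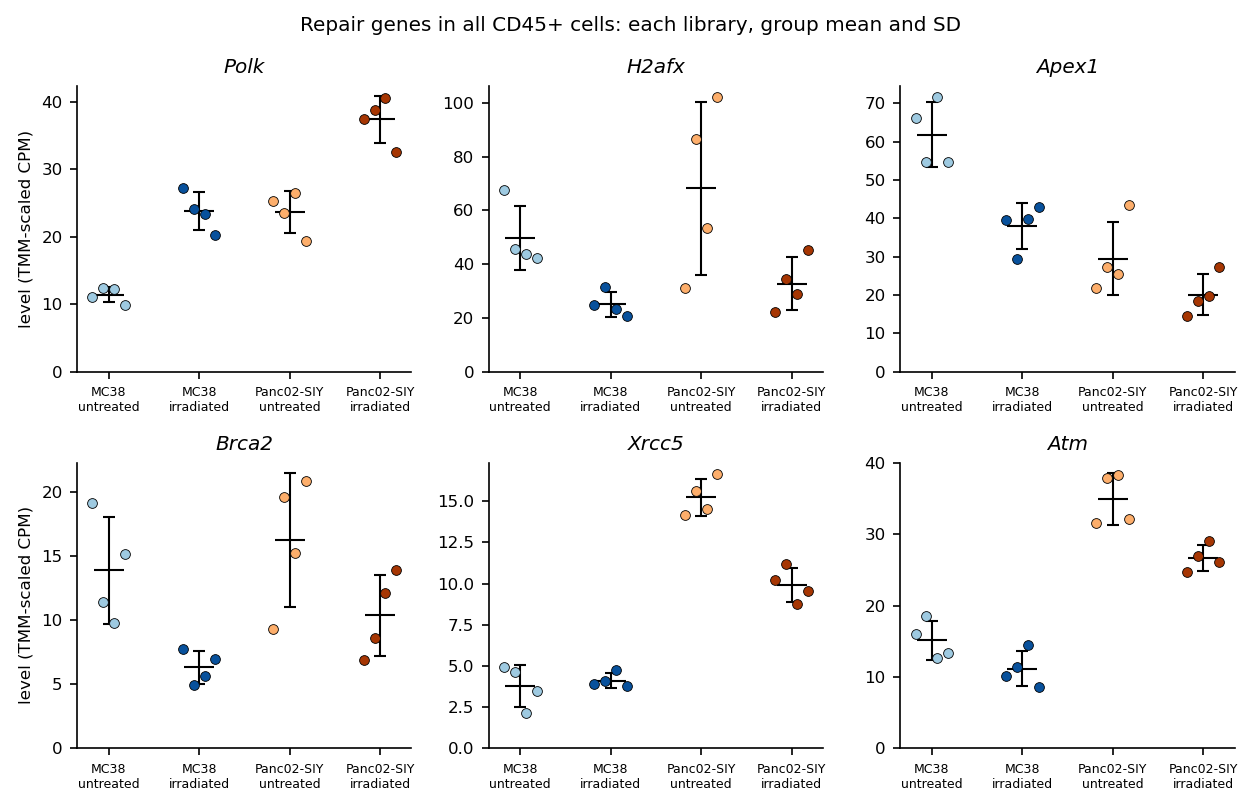
CPM of Polk, H2afx, Apex1, Brca2, Xrcc5 and Atm in all CD45+ cells, with a point per library and the mean ± SD of the 4 libraries of each group. The RT points of Polk lie above the NT points in both tumors (20.3 to 27.2 against 9.97 to 12.4 CPM in MC38), and those of Apex1 and Brca2 lie below them in MC38.

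H2afx encodes the histone H2AX, whose phosphorylated form marks breaks. The gene lies at GRCm38 chr9:44334694-44336077, plus strand. In MC38 its NT libraries were at 67.6, 45.5, 43.9 and 42.3 CPM and its RT libraries at 24.9, 31.5, 23.2 and 20.9 CPM, so that the groups did not overlap. The mean fell from 49.9 ± 11.9 to 25.1 ± 4.56 CPM (log2 -1.01, SE 0.34, adjusted p = 0.0808). In Panc02-SIY the NT libraries were widely spread, at 31.0, 86.5, 53.4 and 102.2 CPM, and the RT libraries were at 22.2, 34.4, 29.1 and 45.4 CPM. Here the groups overlapped through NT replicate 1, and the mean fell from 68.3 ± 32.1 to 32.8 ± 9.76 CPM (log2 -1.06, SE 0.30, adjusted p = 0.0320). The MC38 call was lost in 7 of 16 fits without 1 library, namely without any of the 4 NT replicates or without RT replicates 1, 3 or 4 (log2 -1.08 to -0.83, adjusted p 0.102 to 0.196). The Panc02-SIY call was lost without NT replicate 2 or 4 or RT replicate 1 or 3 (log2 -0.95 to -0.74, adjusted p 0.105 to 0.130). The remaining genes of damage signaling moved less. Atm, the kinase that responds to strand breaks, fell in Panc02-SIY from 31.5, 37.8, 38.3 and 32.1 to 24.7, 27.0, 29.0 and 26.1 CPM, with no overlap (log2 -0.39, SE 0.13, adjusted p = 0.0613), a call lost in 7 of 16 fits, those without 1 of the NT replicates 1 to 3 or 1 of the 4 RT replicates (log2 -0.38 to -0.28). In MC38 its estimate was like in size, log2 -0.42 (SE 0.17), and did not pass (adjusted p = 0.121). Atr, Mdc1, Trp53bp1, Rnf8 and Rnf168 did not pass in either tumor, with log2 fold changes of -0.19 to 0.28.

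Base excision and single-strand break repair gave 1 call per tumor, Apex1, which encodes the endonuclease APE1 that cuts DNA at sites that have lost their base (GRCm38 chr14:50924968-50927139, plus strand). In MC38 Apex1 was at 66.2, 54.8, 71.6 and 54.7 CPM in NT and at 39.7, 29.5, 39.7 and 43.1 CPM in RT libraries. No RT library reached an NT library, and the mean fell from 61.8 ± 8.48 to 38.0 ± 5.90 CPM (log2 -0.69, SE 0.22, adjusted p = 0.0585). In Panc02-SIY the values were 21.8, 27.3, 25.6 and 43.4 CPM in NT and 14.6, 18.5, 19.7 and 27.4 CPM in RT libraries, which overlap (log2 -0.55, SE 0.21, adjusted p = 0.0871). The MC38 call was lost without NT replicate 1 or 3 or RT replicate 1, 2 or 3 (log2 -0.72 to -0.59, adjusted p 0.103 to 0.146), and the Panc02-SIY call was kept in 4 of 16 fits that left out 1 library (log2 -0.56 to -0.25 in the others, where the library left out was any of the 4 MC38 NT, MC38 RT replicate 1 or 3, Panc02-SIY NT replicate 2, 3 or 4, or Panc02-SIY RT replicate 1, 2 or 3). Of the other 6 genes of this role, Parp1, whose product binds strand breaks and builds poly(ADP-ribose), came closest in MC38, at 72.9 ± 2.94 CPM in NT and 56.6 ± 8.84 CPM in RT, with an adjusted p of 0.0637 and a fold under the limit (log2 -0.35, SE 0.11). Polb, the gene of the gap-filling polymerase beta, went the other way in MC38 with log2 0.29 (SE 0.11, adjusted p = 0.108). Ogg1, the glycosylase that removes oxidized guanine, Xrcc1, Lig3 and Parp2 stood between -0.36 and 0.05 in both tumors without passing.

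Homologous recombination and Fanconi anemia genes gave 3 of the 5 lower calls in MC38. Brca2, whose product is a core mediator of homologous recombination, was at 19.2, 11.5, 9.83 and 15.2 CPM in NT and at 7.78, 4.91, 5.68 and 6.97 CPM in RT libraries (GRCm38 chr5:150522630-150570329, plus strand). The groups did not overlap, and the mean fell from 13.9 ± 4.16 to 6.33 ± 1.28 CPM (log2 -1.15, SE 0.31, adjusted p = 0.0315), a call kept without any single library but lost with all barcodes (log2 -0.79, adjusted p = 0.140). Palb2, the partner that joins BRCA2 to BRCA1, was at 5.20, 2.17, 5.54 and 3.84 CPM in NT and at 0.778, 0.818, 1.42 and 2.65 CPM in RT libraries, which overlap (log2 -1.33, SE 0.46, adjusted p = 0.0847). Xrcc2, which also acts in homologous recombination, went from 2.26 ± 0.59 to 1.25 ± 0.42 CPM, also with overlap (log2 -0.93, SE 0.33, adjusted p = 0.0949), on 50 NT and 18 RT molecules in all. Both low genes lost their calls in 6 of 16 fits without 1 library, Palb2 without NT replicate 1, 3 or 4 or RT replicate 1, 2 or 3 (log2 -1.38 to -1.16) and Xrcc2 without NT replicate 2, 3 or 4 or RT replicate 1, 2 or 4 (log2 -0.98 to -0.71). Brca1, the ubiquitin ligase that directs end resection, had the lowest estimate of the 42 in MC38, log2 -1.39 (SE 0.53), with no overlap between 5.00 to 7.67 CPM in NT and 0.709 to 4.50 CPM in RT, but did not pass (adjusted p = 0.112). In Panc02-SIY 0 of these 8 genes passed, while all 8 estimates were below 0, from -0.88 (Brca1, SE 0.38) to -0.03 (Rad52, SE 0.19), with a median of -0.50 against -0.93 in MC38.

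End joining gave its calls in Panc02-SIY. Xrcc5, which encodes Ku80, the subunit that with Ku70 encircles broken ends, was at 14.2, 15.6, 14.5 and 16.6 CPM in NT and at 10.2, 11.2, 8.78 and 9.53 CPM in RT libraries. The groups did not overlap, the mean fell from 15.2 ± 1.12 to 9.93 ± 1.03 CPM (log2 -0.63, SE 0.16, adjusted p = 0.0181), and the call was kept in all 16 fits without 1 library and under the 11 other settings. Xrcc6, the gene of Ku70, fell from 13.3 ± 2.05 to 9.89 ± 0.629 CPM with overlap through NT replicate 1 (log2 -0.44, SE 0.12, adjusted p = 0.0220), and lost its call without NT replicate 2 or 4 or RT replicate 2 or 4 (log2 -0.37 to -0.34). In MC38 Xrcc5 was low in every library (2.14 to 4.97 CPM), with log2 0.16 (SE 0.23), and Xrcc6 gave -0.35 (SE 0.13, adjusted p = 0.114). Prkdc, the catalytic subunit of the DNA-dependent protein kinase, gave -0.37 (SE 0.16) in MC38 and -0.30 (SE 0.12) in Panc02-SIY, and Xrcc4 and Lig4, which seal the break, gave -0.24 to 0.45. None of these 3 genes passed in either tumor.

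Among the remaining roles, 2 genes passed in Panc02-SIY and 0 in MC38. Ercc1, a subunit of the nuclease that cuts 5' of a lesion, went from 11.5, 12.3, 9.26 and 18.01 CPM in NT to 9.55, 8.84, 7.96 and 10.2 CPM in RT libraries, with overlap (log2 -0.50, SE 0.17, adjusted p = 0.0544), and lost its call without NT replicate 2 or 4 or RT replicate 1, 2 or 3 (log2 -0.47 to -0.23). Msh6, a mismatch recognition subunit, went from 16.1, 17.5, 18.3 and 20.5 to 11.4, 10.5, 13.6 and 15.5 CPM without overlap (log2 -0.50, SE 0.15, adjusted p = 0.0345), and lost its call without NT replicate 4 or RT replicate 1 or 2 (log2 -0.41 to -0.37). Of the other nucleotide excision genes, Ddb1, the scaffold of the damage-reading ubiquitin ligase, had an adjusted p of 0.0835 in Panc02-SIY with a fold under the limit (log2 -0.23, SE 0.09). Ddb2 and Xpc, lesion recognition genes known as p53 targets in human cells, did not pass in either tumor, with log2 -0.46 (SE 0.28) and -0.00 (SE 0.15) in MC38 and -0.09 (SE 0.19) and 0.13 (SE 0.13) in Panc02-SIY. The genes of the MRN complex that senses ends, Mre11a, Rad50 and Nbn, were below 0 in both tumors (log2 -0.65 to -0.03) and did not pass.

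The response of no repair gene was shown to differ between tumors. In the test of the interaction 0 of 42 genes passed by edgeR, against 0.345% of all genes, and 0 passed by DESeq2. At an unadjusted p under 0.05 by edgeR there were 4 of the 42. The share of all genes at that limit is not given here or below, so such counts are no result about repair genes. The 3 smallest p-values belonged to Ercc3, a helicase of transcription factor TFIIH (difference of log2 fold changes 0.45, SE 0.16, adjusted p = 0.260), Xrcc4 (0.46, SE 0.16, adjusted p = 0.267) and Xrcc5 (0.79, SE 0.28, adjusted p = 0.268). For H2afx the difference was 0.05 with an SE of 0.46, and for Apex1 it was -0.14 with an SE of 0.30, so differences of the size of these SEs were not detectable.

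Lists of other genes were counted in the same fit to place the repair genes. These lists were written with earlier results of these data known. Of 82 other repair genes, 1 was higher and 25 lower in MC38 (median log2 -0.33), and 2 were higher and 23 lower in Panc02-SIY (median -0.35). Among the largest changes in MC38 were those of Ung, which removes uracil from DNA (-2.61, SE 0.27), Bard1, the partner of BRCA1 (-1.83, SE 0.48), Neil3 (-1.78, SE 0.53) and Lig1, which joins Okazaki fragments (-1.68, SE 0.26). In Panc02-SIY they were those of Ung (-1.65, SE 0.21), Mgmt, which reverses guanine alkylation and rose (1.38, SE 0.24), Chek1 (-1.34, SE 0.28), Lig1 (-1.14, SE 0.23) and Clspn (-1.12, SE 0.40). Of 23 p53 targets outside repair, 22 were tested, and 18 rose and 0 fell in MC38 and 17 rose and 0 fell in Panc02-SIY. Phlda3 (4.04, SE 0.42), Gdf15 (3.52, SE 0.57), Trp53inp1, Zmat3 and Ccng1 (2.35, SE 0.11) led in MC38, and Cdkn1a, the cell cycle inhibitor p21 (2.88, SE 0.16), Phlda3 (2.29, SE 0.35), Bbc3, Ccng1 and Sesn2 led in Panc02-SIY. Of 18 S phase genes, 17 fell in each tumor, with Ccne2 (-3.07, SE 0.33) and Tyms (-2.05, SE 0.38) the first in MC38 and Pclaf (-1.44, SE 0.44) and Tyms (-1.43, SE 0.32) in Panc02-SIY. Of 16 mitosis genes, 2 passed as lower in MC38 and 0 in Panc02-SIY. All 16 estimates were below 0 in both tumors, with a median log2 of -0.98 in MC38 and -0.88 in Panc02-SIY.

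The summed level of the S phase genes was also lower in RT libraries, and its relation to the repair genes across libraries was not tested. It was 691 to 901 CPM in NT and 257 to 357 CPM in RT libraries of MC38, and 660 to 1290 CPM in NT and 375 to 727 CPM in RT libraries of Panc02-SIY. The median share of barcodes in clusters led by cycling markers was 10.2% in NT and 5.46% in RT libraries of MC38, and 9.03% and 3.51% in Panc02-SIY. In MC38 these 138 NT and 78 RT barcodes included all 127 and 69 barcodes of the cancer or stromal-like clusters, so leaving them out removed few cycling leukocytes and was no check of the MC38 calls against cycling. Without them Brca1 passed (log2 -1.17, adjusted p = 0.0867) and Xrcc2 did not. In Panc02-SIY the cycling clusters held 1101 NT and 416 RT barcodes, of which 296 and 149 were cancer or stromal-like. There Polk, H2afx, Xrcc5 and Atm passed without these clusters, with H2afx at log2 -0.56 in place of -1.06, while Xrcc6 (-0.27), Msh6 (-0.37), Ercc1 (-0.32) and Apex1 (-0.47) no longer did. Of all genes tested, 10% passed in Panc02-SIY without these clusters, in place of 14.7%, and 14.6% in MC38, in place of 11.7%. A marker list of cancer and stromal cells summed to 73.0 to 416 CPM in NT and 78.3 to 188 CPM in RT libraries of Panc02-SIY, and to 43.3 to 69.3 and 55.9 to 84.7 CPM in MC38. Without the cancer or stromal-like clusters, 7 genes passed in MC38 and 11 in Panc02-SIY, among them the 6 and the 8 named above. The shares of all genes that passed in that setting are not given here.

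Cycling cells had higher levels of most recombination genes and of H2afx. In Panc02-SIY tumors, where cycling T cells (7 libraries) and cycling macrophages (4 libraries) could be set beside their other clusters (8 libraries each), 28 of 42 genes had a higher mean CPM in cycling T cells and 30 in cycling macrophages, with median ratios of 1.38 and 1.39. The ratio was over 2 for 11 genes in T cells and 13 in macrophages, and the libraries did not overlap for 10 and 9. The same shares over all genes are not given here, so these counts do not show that repair genes stand out. H2afx was at 202 ± 35.1 CPM in cycling and 22.6 ± 3.26 CPM in other T cells, 8.94-fold higher, and at 324 ± 95.5 against 18.7 ± 9.09 CPM in macrophages. Brca1 was at 40.4 ± 4.83 against 2.67 ± 0.943 CPM in T cells, Brca2 at 61.9 ± 11.8 against 9.46 ± 3.28 CPM, and Fancd2, the protein monoubiquitinated at blocked forks, at 30.4 ± 10.5 against 0.502 ± 0.395 CPM. In macrophages the same 3 genes were at 32.1, 42.8 and 27.0 CPM in cycling and at 3.32, 6.80 and 1.80 CPM in other clusters. Several excision and end joining genes went the other way in T cells, with means in cycling clusters of 0.58 (Xpc), 0.61 (Lig4), 0.61 (Lig3) and 0.64 (Xpa) of those in other clusters, with overlap between libraries. Polk stood at 44.0 ± 24.1 CPM in cycling and 58.7 ± 19.4 CPM in other T cells. The cycling clusters were defined by cycling genes with the 42 genes left out of the clustering, so these ratios describe the cells so chosen and carry no test.

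**Figure D3:**
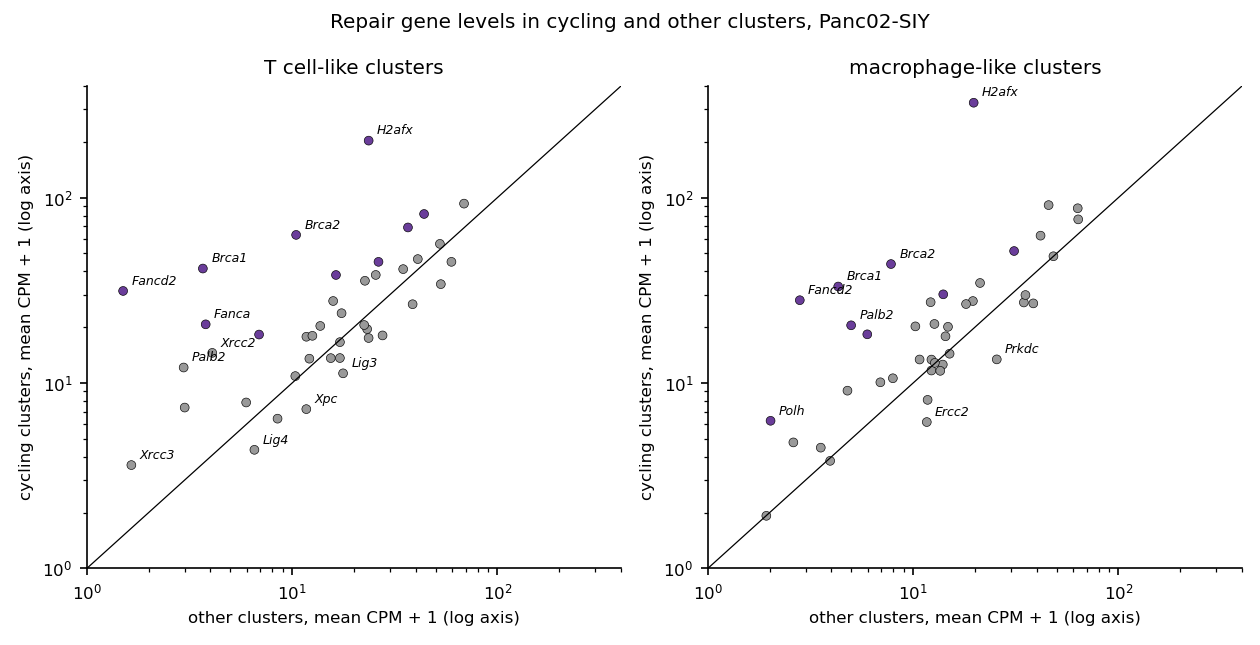
Mean CPM (plus 1, log axes) of each of the 42 genes in cycling clusters against other clusters of T cells and of macrophages from Panc02-SIY tumors, with purple points for genes whose libraries do not overlap. H2afx, Brca1, Brca2, Fanca and Fancd2 lie well above the diagonal in both, and Polk lies near it.

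The response was then taken within cell classes, where the mix of classes does not enter but the mix of clusters inside a class still can. In Panc02-SIY the cycling clusters made up a smaller share of T cells and of macrophages in RT than in NT. Macrophages of MC38 and of Panc02-SIY also fell mostly in different clusters, as given below. Apart from fits without the cycling clusters, the part of this mix inside classes was not tested. Barcodes were clustered without the 42 genes, and 28 clusters were named from markers or left unnamed. Macrophages, with clusters 5, 11 and 22 holding most in MC38 and clusters 6 and 21 in Panc02-SIY, were the named leukocyte class with enough barcodes for a test in both tumors (76 to 378 per MC38 library and 14 to 564 per Panc02-SIY library). In MC38 macrophages 9 of 42 genes passed, 1 higher and 8 lower, or 21.4%, against 12.1% of all 11963 genes (6.79% higher and 5.36% lower). Polk rose from 7.51, 11.5, 11.3 and 7.80 CPM in NT to 18.3, 21.97, 18.7 and 14.3 CPM in RT libraries, without overlap (log2 0.93, SE 0.21, adjusted p = 0.00475). H2afx fell from 45.9 ± 7.57 to 17.3 ± 3.44 CPM (log2 -1.34, SE 0.33, adjusted p = 0.0237) and Apex1 from 62.2 ± 9.02 to 38.6 ± 7.07 CPM (log2 -0.67, SE 0.14, adjusted p = 0.00319), both without overlap.

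In MC38 macrophages 4 of the 8 recombination and Fanconi anemia genes fell. Brca1 went from 4.73, 5.04, 4.16 and 6.86 to 2.03, 2.69, 0.864 and 2.07 CPM (log2 -1.50, SE 0.40, adjusted p = 0.0169), and Brca2 from 17.0, 11.5, 9.11 and 14.3 to 6.10, 5.38, 5.47 and 6.36 CPM (log2 -1.14, SE 0.29, adjusted p = 0.0112). Neither pair of groups overlapped. Palb2 (log2 -1.51, SE 0.43, adjusted p = 0.0264, with overlap) and Xrcc2 (log2 -1.64, SE 0.55, adjusted p = 0.0603, without overlap, at 0 in RT replicates 1 and 2) also passed. Rad50, the coiled-coil subunit of MRN, went from 43.4 ± 6.26 to 29.6 ± 1.54 CPM (log2 -0.56, SE 0.20, adjusted p = 0.0797) and Prkdc from 9.45 ± 0.466 to 6.35 ± 1.44 CPM (log2 -0.58, SE 0.20, adjusted p = 0.0736), both without overlap. Calls were lost without 1 library for 3 of the 9, namely Xrcc2 (NT replicate 4, RT replicate 2 or 3, log2 -1.79 to -1.41), Rad50 (NT replicate 1 or 2, RT replicate 2, 3 or 4, log2 -0.62 to -0.54) and Prkdc (NT replicate 1 or 4, RT replicate 2 or 4, log2 -0.62 to -0.53). With all barcodes Polk, H2afx, Brca1 and Brca2 still passed, and Xrcc2, Palb2, Apex1, Rad50 and Prkdc did not, with Apex1 at -0.34 and Rad50 at -0.35. DESeq2 called 6 of the 42 genes in these macrophages, with Xrcc2, Rad50 and Prkdc not among them. No cluster of these MC38 macrophages was led by cycling markers, yet their summed S phase level was 651 to 902 CPM in NT and 227 to 280 CPM in RT libraries, 17 of 18 S phase and 11 of 16 mitosis genes fell, and its part in the fall of the repair genes was not tested. Of the 82 other repair genes, 27 fell and 1 rose there, and of the p53 targets outside repair, 18 of 21 tested rose.

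In Panc02-SIY macrophages 1 gene passed, H2afx, against 3.84% of all genes. It was at 8.22, 94.5, 89.4 and 107 CPM in NT and at 8.403, 42.1, 14.4 and 45.9 CPM in RT libraries, with overlap through NT replicate 1, which held 14 macrophage barcodes (log2 -1.45, SE 0.34, adjusted p = 0.0458). The call was lost without NT replicate 4 (log2 -1.30, adjusted p = 0.237) and without the filter on low counts, and the estimate was -0.85 without the cycling clusters (adjusted p = 0.0551). The summed S phase level was just as spread, at 156 to 1023 CPM in NT and 151 to 604 CPM in RT libraries. Polk gave log2 0.69 (SE 0.25, adjusted p = 0.146) and Apex1 -0.47 (SE 0.17, adjusted p = 0.144), the second without overlap, and neither passed. The interaction within macrophages called 0 of 42 genes by edgeR, against 0.1% of all genes, and 0 by DESeq2. At an unadjusted p under 0.05 by edgeR there was 1 of the 42, again without a share of all genes. The 3 smallest p-values were those of Nbn, Palb2 and Fanca, and for Polk the difference was 0.24 (SE 0.32) and for H2afx 0.11 (SE 0.48).

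T cells of Panc02-SIY tumors (151 to 1523 barcodes per library) gave the highest Polk levels and a clear rise. This class leaves out the unnamed clusters 3 and 13, in each of which 8 of 10 T cell markers were raised. Polk was at 45.0, 34.3, 42.6 and 30.7 CPM in NT and at 68.7, 71.2, 78.6 and 62.7 CPM in RT libraries. The groups stood far apart, and the mean rose from 38.1 ± 6.76 to 70.3 ± 6.56 CPM, 1.88-fold (log2 0.91, SE 0.13, adjusted p = 0.00262), a call kept without any single library. Xrcc5 fell from 20.2, 21.8, 21.2 and 23.6 to 13.6, 14.5, 16.6 and 14.4 CPM, also without overlap (log2 -0.55, SE 0.14, adjusted p = 0.0350), and lost its call without NT replicate 2 or 4 or RT replicate 2 (log2 -0.55 to -0.49). These were the 2 of 42 genes that passed, against 8.79% of all genes. Xrcc5 did not pass once the cycling cluster was left out, a setting in which 2.16% of all genes passed. The fit had no term for the replicate number, and more genes passed with one, as given below. H2afx (log2 -0.85, SE 0.35, adjusted p = 0.224) and Brca1 (-0.77, SE 0.27, adjusted p = 0.120) had lower means with overlap, beside S phase sums of 1113 to 1987 CPM in NT and 658 to 1216 CPM in RT libraries.

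NK cells of Panc02-SIY tumors (144 to 402 barcodes per library) gave 1 call, a share near that of all genes. Atr, the kinase of stalled forks and single-stranded DNA, was at 48.0, 54.4, 55.4 and 45.2 CPM in NT and at 67.5, 71.6, 82.0 and 74.3 CPM in RT libraries. Every RT library was above every NT library (log2 0.55, SE 0.14, adjusted p = 0.0449), and Atr was the 1 gene of 38 tested that passed, 2.63% against 2.56% of all genes. The Atr call was lost without NT replicate 4 or RT replicate 3 (log2 0.50 in both, adjusted p 0.144 and 0.176), and at clustering resolution 2. This fit too had no term for the replicate number. Polk was at 27.0, 36.3, 27.3 and 35.1 CPM in NT and at 52.4, 47.5, 45.2 and 38.9 CPM in RT libraries, again without overlap, but did not pass (log2 0.53, SE 0.17, adjusted p = 0.127). The S phase sum of NK cells was 474 to 563 CPM in NT and 465 to 574 CPM in RT libraries, and 0 of 17 S phase genes passed. Whether Atr responds differently in NK and T cells was not tested; in T cells its groups overlapped, at 43.1 to 59.2 and 47.8 to 60.4 CPM.

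**Figure D4:**
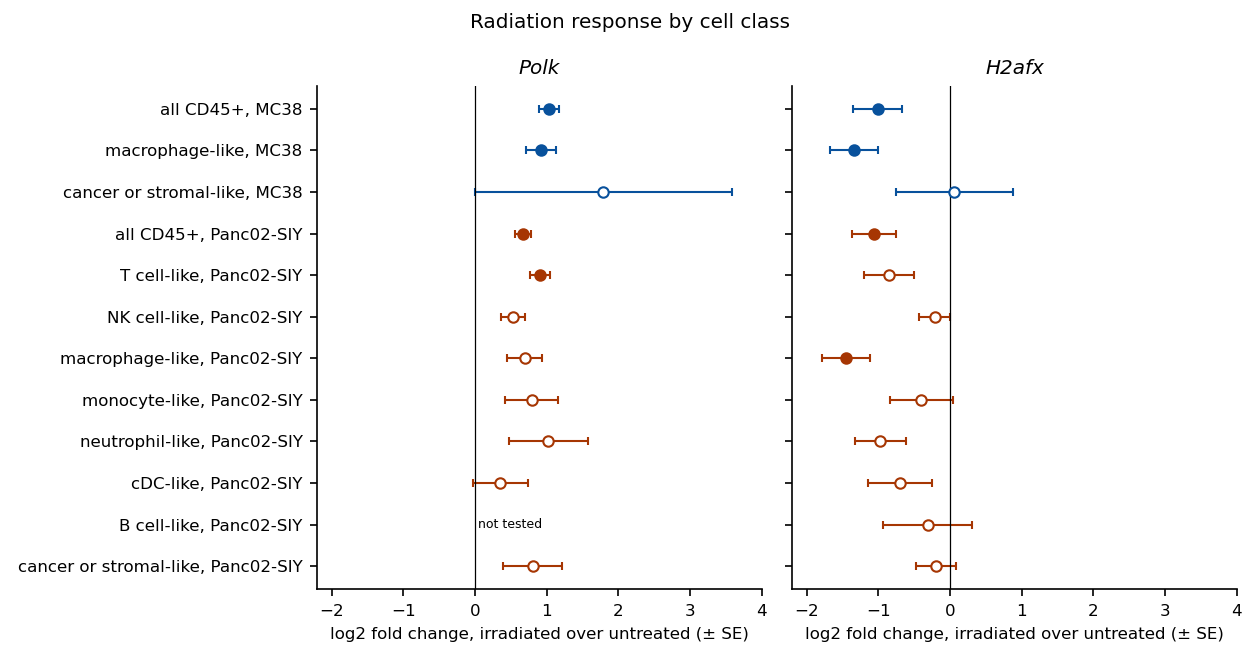
Log2 fold change of Polk and H2afx after 12 Gy, with 1 SE as the bar, in all CD45+ cells and in each cell class and tumor tested, with filled points for tests that passed. Polk lies to the right of 0 in each class in which it was tested, from 0.35 to 1.79, with wide bars for the classes with few barcodes. It was not tested in B cells.

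In the shallower classes 0 of the repair genes passed, in tests that rest on few barcodes or few UMIs per library. The shares of all genes given for them are of genes that passed, and none is given for the unadjusted p. Neutrophils of Panc02-SIY tumors gave 0 of 23 genes tested (1 at an unadjusted p under 0.05, 0 by DESeq2), against 0.0863% of all genes. DESeq2 gave no adjusted p for any of these 23, so it could not have called them. The smallest p-values there belonged to H2afx (log2 -0.97, SE 0.36), Rad50 and Polk (log2 1.03, SE 0.56). Monocytes gave 0 of 31 (2 at an unadjusted p under 0.05, 0 by DESeq2, which gave no adjusted p for 5), against 0.289%, with Ercc1, Polk (0.79, SE 0.37) and Xpa first. Conventional dendritic cells (cDCs), the cells whose migration the study followed, gave 0 of 35 (1 at an unadjusted p under 0.05, 0 by DESeq2), against 0.306%, with Xrcc4 (15.7 ± 5.12 CPM in NT and 7.19 ± 2.79 CPM in RT, without overlap), Msh6 (-0.75, SE 0.44) and H2afx (-0.70, SE 0.45) first. For 32 of these 35 genes DESeq2 gave no adjusted p and could not have called them. B cells gave 0 of 13 (2 at an unadjusted p under 0.05, 0 by DESeq2), against 0.0211%, with Polb, Ercc5 and Mdc1 first. Cancer or stromal-like clusters, which a CD45 sort should leave out, gave 0 of 33 genes in MC38 (1 at an unadjusted p under 0.05), in Panc02-SIY (3) and in the interaction (0), with 0 by DESeq2 in each, against 0%, 0.192% and 0% of all genes. In Panc02-SIY DESeq2 gave no adjusted p for 6 of the 33. Brca2 (0.75), Ercc1 (-0.80) and Polk (0.80, SE 0.41) were first in Panc02-SIY. In MC38 these clusters held 8 to 36 barcodes per library, and RT replicate 2, with 8, was left out of the test. Xrcc4, Parp2 and Rnf168 were first, each with 0 UMIs in the RT libraries tested and a mean of 31.3 to 43.7 CPM in NT. These means rest on few molecules, since each NT library held 21302 to 30823 UMIs of these clusters. Xrcc4 was at 0, 175, 0 and 0 CPM in NT. In the interaction the first genes were Rnf168, Brca1 and Parp2. Polk was tested in 9 comparisons within classes and its estimate was above 0 in 9, from 0.35 (SE 0.38, cDCs) to 1.79 (SE 1.79, MC38 cancer or stromal-like clusters), of which 2 passed. The largest estimate rests on NT values of 31.7, 0, 0 and 0 CPM and RT values of 91.9, 0 and 0 CPM. In B cells Polk was too low to be tested, at 8.76, 11.8, 15.1 and 13.8 CPM in NT and 0, 6.35, 0 and 32.1 CPM in RT libraries.

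cDCs of MC38 tumors were too few for a test by library, with 61 barcodes in NT and 55 in RT summed over 4 libraries each. In those sums Polk had 14 UMIs in NT (12.8 CPM, 95% exact Poisson interval 7.02 to 21.5, counting error only) and 15 in RT (14.6 CPM, 8.15 to 24.0). In Panc02-SIY cDCs it had 47 UMIs in NT (15.4 CPM, 11.3 to 20.4) and 75 in RT (21.4 CPM, 16.8 to 26.8). These intervals overlap within each tumor, and the by-library test in Panc02-SIY, above, did not pass.

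The levels of the 42 genes differed between cell classes. Taken over the 8 Panc02-SIY libraries (5 for mast cells or basophils), the highest mean CPM was in T cells for 17 genes, in B cells for 8, in NK cells for 7, in macrophages for 5, in cDCs and in mast cells or basophils for 2 each and in neutrophils for 1. The share of all genes that is highest in each class is not given here. T cells here include their cycling cluster, and some of their ranks rest on it. In T cells outside that cluster, H2afx, Brca1 and Fancd2, given above, were below cDCs, which were at 61.0, 5.54 and 2.46 CPM. Some of the B cell ranks rest on few UMIs, such as 12 for Rad52 and 14 for Fanca. Polk averaged 55.0 ± 20.7 CPM in T cells and 38.8 ± 10.1 in NK cells, against 16.6 ± 6.94 in cDCs, 15.5 ± 7.28 in monocytes, 11.9 ± 3.97 in macrophages, 10.1 ± 10.5 in B cells and 9.55 ± 6.27 in neutrophils (SD over libraries of both treatments, n = 8). T and NK cells overlapped each other, and neighbors from cDCs down to neutrophils did not differ beyond their spread. Xrcc5 was at 18.1 ± 3.11 CPM in T cells, 15.9 ± 10.1 in B cells and 15.2 ± 5.90 in NK cells. It was at 16.1 ± 13.4 CPM in mast cells or basophils (n = 5), on 13 UMIs. In macrophages it was at 5.93 ± 3.06 CPM, in monocytes at 2.27 ± 2.12, in neutrophils at 0.707 ± 0.778 and in cDCs at 0.199 ± 0.375. Its 3 lymphocyte classes overlap each other, and every T cell library (14.5 to 21.4 CPM) lay above every macrophage library (0 to 9.80 CPM). In summed Panc02-SIY cDCs Xrcc5 had 0 UMIs in NT and 2 in RT, for which the exact Poisson intervals reach 1.21 and 2.06 CPM.

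Other genes had other orders. Atm was at 44.6 ± 9.01 CPM in NK cells, 41.1 ± 4.14 in T cells and 41.0 ± 18.7 in B cells, which overlap, and at 21.8 ± 7.07 in macrophages and 6.01 ± 3.68 in neutrophils. Polb was highest in cDCs, at 112 ± 34.7 CPM, followed by monocytes at 69.0 ± 14.6, B cells at 40.8 ± 33.6 and T cells at 34.8 ± 3.61. Parp1 was highest in B cells, at 139 ± 48.9 CPM against 65.2 ± 21.8 in macrophages, and the ranges overlap. Apex1 was at 47.2 ± 13.4 CPM in macrophages and 46.1 ± 11.6 in cDCs, which do not differ beyond their spread, and at 18.1 ± 3.94 in T cells and 5.00 ± 4.23 in neutrophils. Xpc, the sensor of distorted helices, was the gene highest in neutrophils, at 23.4 ± 8.44 CPM, close to B cells at 20.7 ± 13.2. In MC38, where fewer libraries reached 10 barcodes of a class (3 for T cells, 4 for NK cells, 5 for cDCs and 8 for macrophages), Polk was at 24.8 to 76.9 CPM in NK cells and averaged 49.2 ± 6.17 in T cells, 13.6 ± 6.35 in cDCs and 12.8 ± 4.50 in macrophages, and Polb was again highest in cDCs, at 102 ± 39.5 CPM.

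**Figure D5:**
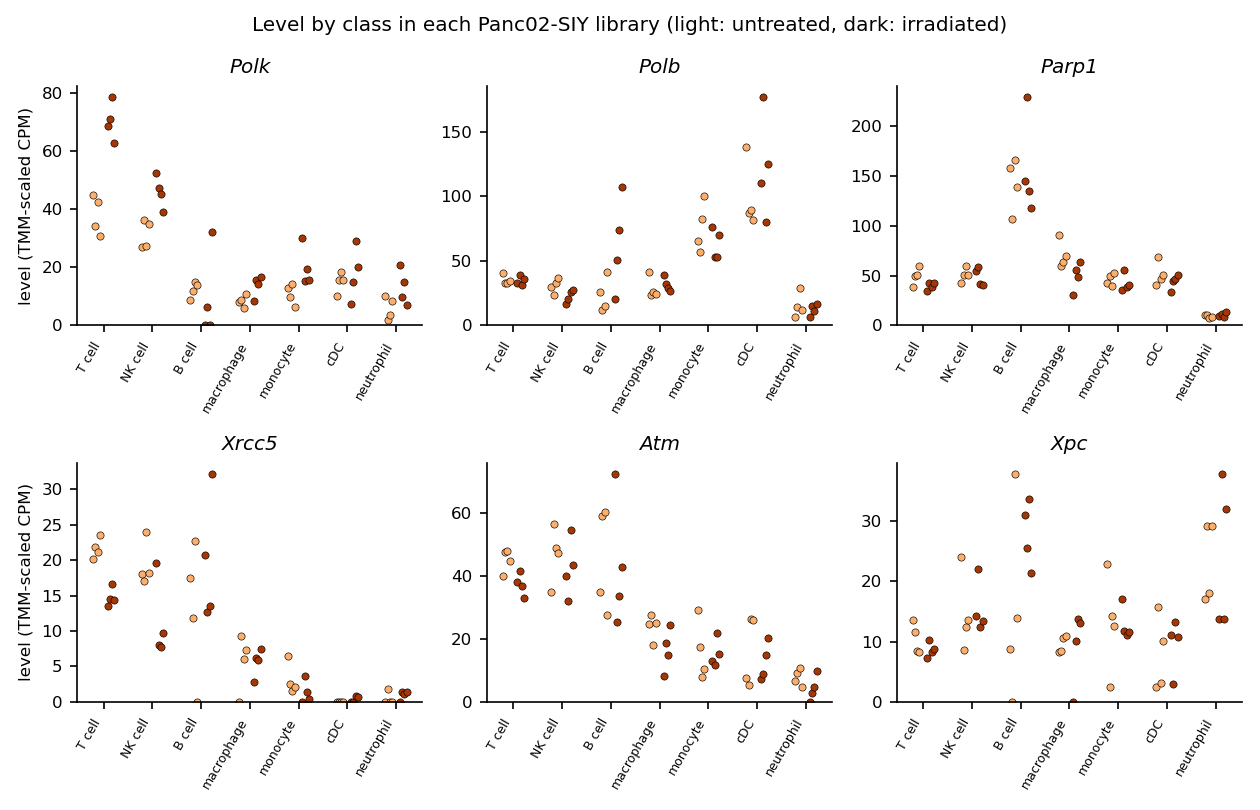
CPM of Polk, Polb, Parp1, Xrcc5, Atm and Xpc in each cell class, with a point per Panc02-SIY library, light for NT and dark for RT. Polk stands highest in T and NK cells, Polb in cDCs, and Xrcc5 is near 0 in neutrophils and cDCs.

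In sums over all CD45+ cells the tumors differed in most repair genes, beside a different mix of leukocytes. Named macrophages were 51.7% to 69.7% of kept barcodes in MC38 libraries and 1.26% to 12.7% in Panc02-SIY libraries, and named T cells were 2.19% to 6.12% and 13.5% to 34.2%. These shares leave out the unnamed clusters. Of those, shallow cluster 1 had 8 of 10 macrophage markers raised and held 1356 NT and 609 RT barcodes of Panc02-SIY. Clusters 3 and 13 each had 8 of 10 T cell markers raised. The shares of named macrophages and T cells may thus be too low. The part of this mix in the differences below was not tested. In untreated tumors 25 of 42 genes passed, 7 higher and 18 lower in MC38, against 61.1% of all genes (29.1% higher and 32% lower). In irradiated tumors 27 passed, 9 higher and 18 lower, against 58.5% (29.9% higher and 28.6% lower). These shares of repair genes, 59.5% and 64.3%, are near those of all genes. These comparisons share no library with each other, but both share theirs with the comparisons of RT and NT.

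In these sums over all CD45+ cells, base excision genes were higher in MC38 and most other groups were lower. Of the 7 base excision and single-strand break genes, 6 passed as higher in both comparisons, with Apex1 (log2 1.05, SE 0.21), Ogg1 (0.80, SE 0.21), Parp1 (0.60, SE 0.11), Xrcc1 (0.54, SE 0.14), Parp2 (0.49, SE 0.16) and Polb (0.43, SE 0.10) in untreated tumors, and Lig3 was the 1 that did not pass in either. Of the 7 damage signaling genes, 4 passed as lower in both comparisons of the sums: Atm (-1.23, SE 0.14), Trp53bp1 (-1.10, SE 0.12), Atr (-1.07, SE 0.16) and Mdc1 (-0.50, SE 0.12). Xrcc5 had the largest difference, log2 -2.05 (SE 0.19), with 2.14 to 4.97 CPM in untreated MC38 and 14.2 to 16.6 CPM in untreated Panc02-SIY libraries. Ddb2 (-1.56, SE 0.22), Prkdc (-1.27, SE 0.13), Fancd2 (-1.16, SE 0.49), Polk (-1.05, SE 0.13), Lig4 (-0.98, SE 0.38), Msh6 (-0.95, SE 0.16), Brca1 (-0.81, SE 0.41), Xrcc2 (-0.71, SE 0.26), Rad52 (-0.70, SE 0.21), Ercc5 (-0.66, SE 0.21), Ercc3 (-0.45, SE 0.11), Mre11a (-0.41, SE 0.12) and Ercc4 (-0.40, SE 0.16) were also lower, and Ercc1 was higher (0.39, SE 0.17), with adjusted p up to 0.0917. Without the cycling clusters, the estimates of Xrcc2, Fancd2 and Brca1 lay above 0 and did not pass. Of the 25 calls, 19 were kept without any single library, and those of Brca1 (9 of 16 fits, log2 -0.94 to -0.54), Ercc1 (5 fits), Ercc4 (4), Fancd2 (3), Mre11a (3) and Polb (1) were lost in some, without NT replicates of either tumor and, for Brca1, also without RT replicate 1 or 4 of MC38 or 2 of Panc02-SIY.

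In irradiated tumors the order was much the same. Xrcc5 (-1.26, SE 0.20), Atm (-1.26, SE 0.16), Prkdc (-1.34, SE 0.15), Ddb2 (-1.94, SE 0.25) and Polk (-0.68, SE 0.12) were lower in MC38 without overlap, and Apex1 (0.91, SE 0.22) and Ercc1 (0.99, SE 0.18) were higher without overlap. Genes that passed here and not in untreated tumors were Nbn, Brca2, Palb2, Xpc, Polh, Xrcc4 and Xrcc6, and Palb2 (-1.24, SE 0.45) and Brca2 (-0.76, SE 0.31) were lower in MC38 while Xrcc4 (0.52, SE 0.12) and Xrcc6 (0.41, SE 0.13) were higher. Without the cycling clusters Brca2 (-0.10, SE 0.24), Fancd2 (-0.00, SE 0.40), Brca1 (-0.40, SE 0.43), Polh (-1.02, SE 0.55) and Msh6 (-0.36, SE 0.17) no longer passed. For each gene that passed in irradiated tumors alone the test of the interaction, given above as a whole, did not pass. Of the 27 calls, 18 were kept without any single library. Xrcc1 and Xrcc6 lost theirs in 8 of 16 fits (log2 0.25 to 0.33 and 0.29 to 0.36), without any of the 4 Panc02-SIY NT replicates, Panc02-SIY RT replicate 1, 2 or 4, or 1 MC38 RT replicate (2 for Xrcc1 and 1 for Xrcc6), and Fancd2, Polh, Brca2, Parp1, Brca1, Xpc and Xrcc4 lost theirs in 1 to 4 fits, each without an RT replicate.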

How the data were processed

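The 16 libraries were made with the 10x 3' version 3.0 kit, and the authors deposited a matrix of UMI counts for each, made with Cell Ranger 3.1.0 and bcl2fastq 2.20.0 on build mm10 according to the submitters' notes. The annotation is not given in the sources used here. A barcode found in several libraries of a tumor was kept only where it had the most UMIs. Replicate libraries differed by more than independent draws of UMIs would give (chi-square per degree of freedom of at least 4.69). UMIs of 1 cell are not independent draws, so this value cannot show that libraries differ beyond the sampling of cells. Barcodes were clustered without the 42 genes (scanpy 1.11.5, 2000 variable genes, 30 components, 20 neighbors, Leiden resolution 1), and clusters were named from marker lists, which left clusters 1, 3, 7, 8, 13 and 26 unnamed. Clusters 1 and 7 were left unnamed as shallow, at relative UMI depths of 0.183 and 0.185. Clusters named at lower depth were 15 (cancer or stromal-like, 0.129), 22 (macrophage, 0.149, nearly all from MC38) and 23 (neutrophil, 0.143). Doublets were kept, and the 5% of barcodes with the highest Scrublet score were left out as an alternative, since the automatic call marked 0.274%.

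Counts were summed per library over all CD45+ barcodes or a class and tested with edgeR 4.0.16 (R 4.3.3, quasi-likelihood, TMM scaling, 1 term per group, Benjamini-Hochberg over all genes tested). A gene passed at an adjusted p under 0.1 and a fold over 1.3. The SE of a log2 fold change is its absolute value divided by the square root of the quasi-likelihood F statistic. Low genes were removed with filterByExpr (minimum count 10, or 3 within classes, and total 15). A class was tested where at least 3 libraries of each group compared held 10 barcodes, which left Panc02-SIY alone for T, NK and B cells, neutrophils, monocytes and cDCs. Values of single libraries are CPM after TMM scaling, and levels across classes are plain CPM. DESeq2 1.42.0, other size factors, filters, cell sets and leaving out each library were alternatives. The promoter table is RefSeq's for GRCm38.p6, and coordinates of genes are from GENCODE M21.

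The 42 genes and all lists were chosen with earlier results of these data known. Members that passed are given with full statistics, or, where none passed, the 3 with the smallest p, and from each other list at most the 5 genes that passed with the largest change. One item that this rule names is not reported here.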

Additional observations from a re-analysis of the deposited data

Results flagged for a closer look

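H2afx in all CD45+ cells of untreated MC38 tumors had 1 library far from the others: replicate 1 was at 67.6 CPM, while the other 3 replicates were at 42.3 to 45.5 CPM. Its gap to the nearest library was 0.874 of the range of the group, above Dixon's critical value for 4 libraries. Chance flags about 1 in 20 groups, and 54 groups were screened. Without this library the log2 fold change of H2afx in MC38 stayed below 0 and no longer passed.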

How the results depend on the processing

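Between RT and NT in all CD45+ cells, MC38 gave 1 gene with all barcodes and 2 with a limit of 0.05 on the adjusted p and 0.58 on the log2 fold change, in place of 6. Panc02-SIY gave 5 without a filter on low counts, 4 without the cycling clusters, 4 with only its own groups in the fit and 3 with the stricter limits, in place of 8. The interaction gave 1 gene with all barcodes in place of 0, and untreated tumors gave 16 with the stricter limits in place of 25. MC38 macrophages gave 4 with all barcodes in place of 9, and Panc02-SIY macrophages gave 0 without the filter and 2 with all barcodes, without the cycling clusters or at clustering resolution 2, in place of 1. T cells gave 1 without the cycling cluster or at resolution 2 in place of 2, and NK cells gave 0 at resolution 2 in place of 1. Without the cycling clusters the share of all genes that passed also fell in Panc02-SIY. It was 10% in place of 14.7% in all CD45+ cells, 2.16% in place of 8.79% in T cells and 2.02% in place of 3.84% in macrophages. For the other settings and for the fits without 1 library those shares are not given here, so these counts are no result about repair genes. Leaving out 1 library gave 2 to 12 genes in MC38, 3 to 10 in Panc02-SIY, 19 to 25 between untreated and 23 to 31 between irradiated tumors, 6 to 12 in MC38 macrophages, 0 to 3 in Panc02-SIY macrophages, 1 to 7 in T cells (7 without NT replicate 1) and 0 to 2 in NK cells. In untreated tumors 3 genes changed sign without the cycling clusters, Xrcc2 to 0.061, Fancd2 to 0.49 and Brca1 to 0.38. Over all 79 gene values and their 2056 refits, 1833 kept direction and side of the threshold, 220 kept the direction and lost the call, and 3 were these reversals. The causes were not tested. The interaction within macrophages and the classes in which 0 genes passed gave 0 under every setting run, and the interaction in all CD45+ cells gave 0 under every setting but all barcodes. DESeq2 gave no adjusted p for the neutrophil genes and for most cDC genes, so its 0 there is not a test result.

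Same-numbered libraries of NT and RT groups did not deviate together throughout (correlations of -0.043 to 0.127 in MC38 and -0.174 to 0.788 in Panc02-SIY), and the main fits did not pair them. In Panc02-SIY replicates 1, 3 and 4 correlated at 0.469, 0.345 and 0.788, and replicate 2 at -0.174. There 6 of 8 libraries correlated best with their own number, against 3 of 8 in MC38. A link between same-numbered Panc02-SIY libraries is thus possible, and the main fits leave it out. With the replicate block 8 genes passed in MC38, 11 in Panc02-SIY, 9 in MC38 macrophages, 8 in T cells in place of 2 and 3 in NK cells in place of 1. The shares of all genes that passed with the block are not given here, so these counts are no result about repair genes. The cancer or stromal-like clusters were left out as an alternative chosen after seeing the data. Depth limits the low genes most: Xrcc3 had 232 UMIs in all libraries, and MC38 libraries held as few as 147 barcodes.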
